A study of Mus musculus with 10 samples.

Results

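The Tmem genes of the mouse are named only for coding a transmembrane protein, and their protein products sit in many membranes of the cell. Their mRNAs were chosen by symbol (Tmem followed by a digit) and by level, as those with a mean of at least 5 transcripts per 1000000 (TPM) over 10 libraries. This gave 115 of the 170 Tmem genes in the table, made of 150 transcripts whose TPM were summed by gene, out of 9853 genes at that level. The other 55 Tmem genes were under the minimum. Tmem246 (4.92 TPM), Tmem150a (4.84 TPM) and Tmem151b (4.82 TPM) lay just under it, while Tmem223 (5.21 TPM), Tmem67 (5.26 TPM) and Tmem104 (5.28 TPM) lay just over it.

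The libraries came from Neuro2a (N2A) cells, a mouse neuroblastoma line, grown on a membrane whose 1 µm pores let neurites but not cell bodies pass, so that neurite and soma RNA could be collected apart. The cells were transfected with a DMPK fragment carrying 480 CTG repeats (CTG480), with a kinesin tail that lacks its motor domain (Kif1bα tail or Kif1c tail), or with 1 of the 2 controls, the DMPK fragment without repeats (CTG0) and the Kif1bβ tail. CTG repeats were used to deplete MBNL, an RNA-binding protein, and the tails to block transport by the kinesin they come from. There was 1 neurite and 1 soma library per transfection, each pooled from the wells of a plate in a single run of the experiment, and no transfection was repeated. The p-values below measure the spread between 5 different transfections.

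Most proteins with several membrane spans are made by ribosomes docked on the endoplasmic reticulum (ER), and those of the mitochondrial inner membrane that are coded in the nucleus are made in the cytoplasm and imported. Neurites of cultured neuron-like cells hold many mRNAs at levels that differ from those of the cell body, and mRNAs of mitochondrial and ribosomal proteins are often described among the ones that are high there. Tmem proteins include enzymes, channels, scaffolds of the nuclear envelope and cilium, and assembly factors of the respiratory chain, while many have no known role.

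Values in the neurite libraries summed to between 870745 and 892618 TPM, against 1045625 to 1183538 TPM in the soma libraries, in TPM that had been normalized between libraries before deposit. Noncoding transcripts took 24.2% to 27.7% of the neurite sums and 33.0% to 37.9% of the soma sums. Of 15 neuroblastoma and neuron markers 12 were in the table and 10 passed the minimum, with summed levels of 1236 to 1331 TPM in neurites and 1439 to 1539 TPM in soma. Of 15 markers of other cell types 5 were in the table and 1 passed the minimum. Nuclear RNAs (5 of 6 listed ones at the minimum) summed to 1184 to 1487 TPM in neurites and 1650 to 1999 TPM in soma, with every neurite library under every soma library. Most of these sums was Malat1, with means of 1225 TPM in neurites and 1653 TPM in soma. The neurite libraries were thus not free of nuclear RNA. The part of the nuclear RNA and of the noncoding share in the results below was not tested.

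Tmem mRNAs were of moderate abundance. Their means ran from 5.21 to 104.9 TPM with a median of 18.9 TPM, against a median of 23.4 TPM over all genes at the minimum, and 83 of the 115 had at least 10 TPM, 56 at least 20 TPM, 13 at least 50 TPM and 1 at least 100 TPM. The most abundant was Tmem59, whose protein sits in Golgi and endosomes, with 93.9 ± 4.32 TPM in neurites and 115.8 ± 5.32 TPM in soma (SD, n = 5 each). Tmem256 followed with 99.4 ± 11.4 TPM in neurites and 90.5 ± 11.8 TPM in soma (SD, n = 5 each). Tmem258, a subunit of the oligosaccharyltransferase that adds sugar chains to new ER proteins, had 91.8 ± 20.6 TPM in neurites and 88.9 ± 12.6 TPM in soma (SD, n = 5 each). Tmem50a had 81.6 ± 9.11 TPM in neurites and 98.0 ± 2.69 TPM in soma, and Tmem259 (membralin, of ER-associated degradation) averaged 78.9 TPM in neurites and 82.3 TPM in soma. In neurites the levels of Tmem256, Tmem258 and Tmem50a overlapped over the libraries. In soma the lowest Tmem59 value (109.8 TPM) was above the highest of Tmem50a (101.7 TPM), and the lowest Tmem50a value (94.8 TPM) was above the highest of Tmem259 (89.3 TPM).

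In neurites against soma, Tmem mRNAs lay mostly on the soma side. With limma on log2(TPM + 0.1), blocked by transfection, 7 of the 115 were higher in neurites (adjusted p under 0.05), 41 were higher in soma and 67 were not called. That is 6.09% of the Tmem mRNAs higher in neurites and 35.7% higher in soma, against 19.4% and 18.6% of all 9853 genes. The median log2(neurite/soma) of the Tmem mRNAs was -0.13, and that of all genes was 0.01. In all, 81 Tmem mRNAs (70.4%) had a value below 0, against 47.7% of all genes. Changes were small here as over all genes. In the mean, 5 of the Tmem mRNAs (4.35%) went past 0.5 on the log2 scale, against 5.43% of all genes. The 5 neurite libraries were all above the 5 soma libraries for 5 Tmem mRNAs (13.7% of all genes) and all below them for 27 (14.3% of all genes).

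The zero point of this comparison depends on how libraries are scaled. Each scaling below shifts all genes of a library by the same log2 amount, apart from the added 0.1 TPM. It therefore cannot test the place of the Tmem mRNAs relative to other genes. With each library scaled to a sum of 1000000, the Tmem median moved to 0.21 and the median of all genes to 0.35, and 49 Tmem mRNAs were called higher in neurites and 3 in soma, beside 72.0% and 2.06% of all genes. With libraries scaled to the same sum over coding transcripts, a choice made after the sums were seen, the Tmem median was 0.01, the median of all genes was 0.15, and 21 Tmem mRNAs were called higher in neurites and 23 in soma, beside 44.0% and 9.06% of all genes. Relative to the median of all genes the Tmem median was -0.14, and 83 of 115 Tmem mRNAs lay below that median. Scaling whole libraries leaves both values in place by design, so it adds no support for them. A direction given below for a Tmem mRNA is on the deposited scale.

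The shift toward soma was seen in each transfection. The median ratio of the Tmem mRNAs was -0.18 with CTG480, -0.05 with the Kif1bα tail, -0.17 with the Kif1c tail, -0.23 with CTG0 and -0.17 with the Kif1bβ tail, while that of all genes stayed between 0.00 and 0.02. Between 67 (Kif1bα tail) and 84 (Kif1bβ tail) of the 115 had a ratio below 0. The pattern was not particular to Tmem symbols. Of 147 Slc mRNAs, which code solute carriers, 15 were higher in neurites and 55 higher in soma, with a median of -0.16. Of 248 Zfp mRNAs, which code soluble zinc finger proteins, 20 were higher in neurites and 71 higher in soma, with a median of -0.10.

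Grouped by where the protein sits or what it does, the 12 mRNAs of mitochondrial proteins had a median on the neurite side. Of these 3 were higher in neurites (19.4% of all genes were), 1 was higher in soma (18.6% of all genes) and 8 were not called, with a median log2(neurite/soma) of 0.07 and a range of -0.27 to 0.79. The median of this list was above 0 in each transfection, between 0.05 and 0.18, whereas the 103 other Tmem mRNAs had a median of -0.19 with 4 higher in neurites and 40 higher in soma. Of the 12, 4 lay below the median of all genes, a count that scaling whole libraries cannot test. All genes with 72 to 190, 195 to 271 or 275 to 407 codons had medians of 0.06 in each range. Of these genes 27.04%, 25.2% and 25.7% were higher in neurites. With a median of 197.5 codons, the list thus lay near all genes of like coding length, and it stood apart only from the other Tmem mRNAs. The list was written from background knowledge, and its difference from the other lists is a description without a test.

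**Figure D1:**
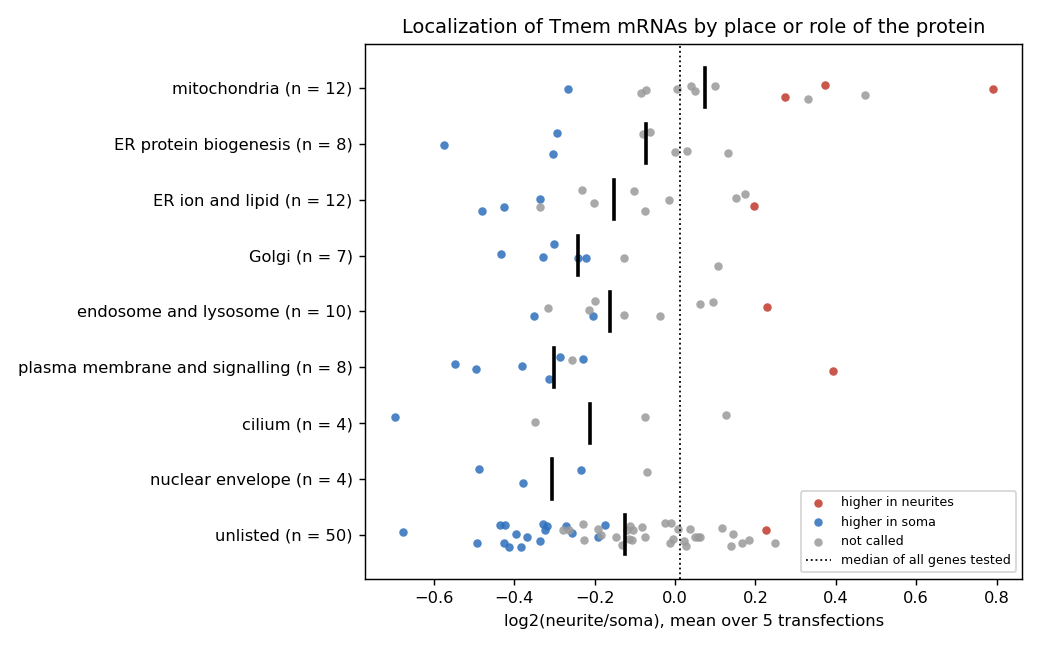
Mean log2(neurite/soma) over 5 transfections (x axis) of 115 Tmem mRNAs, 1 point each, in rows by the list of the protein, with the list's median as a black bar, the call by limma as colour and the median of all 9853 genes as a dotted line. The mitochondria list has its median at 0.07, and the other rows have medians between -0.31 and -0.07.

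Tmem160, which codes a small protein of the inner mitochondrial membrane (gene at chr7:16452779-16455494, plus strand, GRCm38), was the Tmem mRNA furthest toward neurites. Its levels in neurites were 35.2 TPM with CTG480, 37.3 TPM with the Kif1bα tail, 26.6 TPM with the Kif1c tail, 43.5 TPM with CTG0 and 47.2 TPM with the Kif1bβ tail. In soma they were 20.1, 23.3, 25.9, 20.7 and 18.3 TPM in the same order of transfections. All 5 neurite libraries were above all 5 soma libraries, by a wide margin except with the Kif1c tail. The log2 difference was 0.79 ± 0.165 (SE, limma, adjusted p = 0.00889), or 1.73-fold.

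Tmem242, an assembly factor of ATP synthase, was the next mitochondrial member among those called. It had 64.5, 53.0, 46.4, 57.7 and 58.6 TPM in neurites and 41.4, 44.5, 41.9, 45.8 and 41.5 TPM in soma (CTG480, Kif1bα tail, Kif1c tail, CTG0 and Kif1bβ tail), with no overlap of the fractions and a log2 difference of 0.37 ± 0.0725 (SE, limma, adjusted p = 0.00668). Tmem14c, known in erythroid cells for porphyrin transport in heme synthesis, had 34.6 ± 3.97 TPM in neurites and 28.5 ± 2.43 TPM in soma (SD, n = 5 each), where the fractions overlapped and the log2 difference was 0.27 ± 0.0828 (SE, limma, adjusted p = 0.0347).

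The remaining mitochondrial members were mostly near 0. Tmem126a and Tmem126b both serve the assembly of respiratory complex I, and their mean ratios had opposite signs. Tmem126a had 21.2, 28.1, 26.6, 21.5 and 25.8 TPM in neurites and 30.2, 32.6, 24.7, 28.9 and 31.4 TPM in soma, in the same order, and was called higher in soma (log2 -0.27 ± 0.0859 SE, limma, adjusted p = 0.0427), a call that was lost without CTG480, the Kif1bα tail, CTG0 or the Kif1bβ tail, each left out in turn. Tmem126b averaged 16.5 TPM in neurites and 13.0 TPM in soma and was not called (0.33 ± 0.138 SE, limma, adjusted p = 0.0945). Tmem223, at the minimum level, averaged 6.07 TPM in neurites and 4.35 TPM in soma and was not called (0.47 ± 0.272 SE, limma, adjusted p = 0.202), with ratios that ran from -0.44 with the Kif1bα tail to 1.43 with the Kif1c tail. Tmem65, Tmem11, Tmem143, Tmem261, Tmem186 and Tmem70, the last an ATP synthase assembly factor, had log2 values between -0.08 and 0.10 and were not called.

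Of the other 4 Tmem mRNAs higher in neurites, Tmem198, Tmem55b and Tmem64 came from different lists and Tmem183a was in none. Tmem198, a membrane protein of Wnt signalling, had 10.2, 10.2, 9.38, 10.2 and 11.0 TPM in neurites and 7.51, 8.15, 8.83, 8.20 and 6.23 TPM in soma, in the same order, with no overlap and a log2 difference of 0.39 ± 0.105 (SE, limma, adjusted p = 0.0224). Tmem55b, a lysosomal protein that takes part in lysosome transport, averaged 45.6 ± 2.66 TPM in neurites and 38.9 ± 2.69 TPM in soma (SD, n = 5 each; log2 0.23 ± 0.0671 SE, limma, adjusted p = 0.0309). Tmem183a (0.23) and Tmem64 (0.20), an ER protein of calcium signalling, did not overlap between fractions. Tmem160, Tmem242 and Tmem64 were the 3 called with every transfection left out in turn, and the count was 4 without CTG480 and 4 without the Kif1bβ tail.

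**Figure D2:**
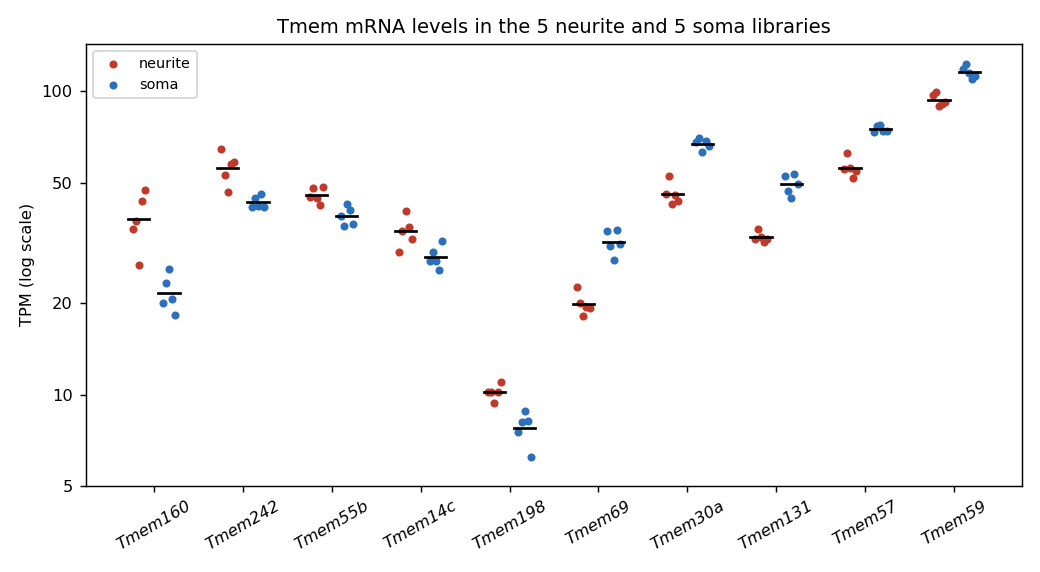
Levels in TPM on a log axis of 10 Tmem mRNAs in the 5 neurite libraries (left of each pair, red) and the 5 soma libraries (right, blue), 1 point per library with the mean as a bar. The neurite points lie above the soma points for Tmem160, Tmem242 and Tmem198, overlap them for Tmem55b and Tmem14c, and lie below them for Tmem69, Tmem30a, Tmem131, Tmem57 and Tmem59.

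On the soma side the leading member was Tmem69, for which no list was assigned. It had 22.7, 20.003, 18.1, 19.5 and 19.3 TPM in neurites and 34.6, 31.0, 27.9, 34.8 and 31.3 TPM in soma (CTG480, Kif1bα tail, Kif1c tail, CTG0 and Kif1bβ tail). The fractions were far apart in each transfection, with a log2 difference of -0.68 ± 0.0496 (SE, limma, adjusted p = 0.000437), and Tmem69 was 1 of the 3 still called higher in soma when libraries were scaled to 1000000. Tmem138, a protein needed for making cilia, had a mean of -0.70 ± 0.22 (SE, limma, adjusted p = 0.0403) that rested on unlike ratios. Its levels were 3.55, 6.48, 6.39, 7.85 and 4.83 TPM in neurites and 10.2, 11.5, 6.87, 7.76 and 10.3 TPM in soma, so that the fractions overlapped and the ratio with CTG0 was 0.02. The call was lost without CTG480, the Kif1bα tail or the Kif1bβ tail. Exons of Tmem138 overlap those of Cyb561a3 on the opposite strand.

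Members of the plasma membrane and signalling list were largely higher in soma, 6 of 8 (18.6% of all genes were). Tmem198 was the 1 higher in neurites (19.4% of all genes were), and the median of the list was -0.30. Tmem30a (CDC50A), the subunit that phospholipid flippases need to leave the ER, had 45.8, 52.6, 42.6, 45.6 and 43.3 TPM in neurites and 68.1, 69.9, 63.2, 68.4 and 65.8 TPM in soma, in the same order. The fractions did not overlap, and the log2 difference was -0.55 ± 0.043 (SE, limma, adjusted p = 0.000437). Tmem206, an acid-activated chloride channel, averaged 13.1 ± 1.04 TPM in neurites and 18.5 ± 0.66 TPM in soma (SD, n = 5 each), at -0.50. The cell surface hyaluronidase Tmem2 (-0.38), the axonal endosome adaptor Tmem108 (-0.31) and the mechanosensitive channels Tmem63b (-0.29) and Tmem63a (-0.23) were also called higher in soma, although the call of Tmem63a was kept only without CTG480 among the 5 fits that left out a transfection. Tmem173 (STING), an adaptor of cytosolic DNA sensing, was not called, with ratios from -1.18 with CTG0 to 0.54 with the Kif1c tail.

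Of 4 nuclear envelope members 3 were higher in soma (18.6% of all genes were). They were Tmem209 (-0.49) and the inner nuclear membrane proteins Tmem43 (LUMA, -0.38) and Tmem201 (Samp1, -0.23), while Tmem18 was not called. The 7 Golgi members had 5 higher in soma (18.6% of all genes) and none higher in neurites (19.4% of all genes), with a median of -0.24. These were Tmem87a (-0.43), Tmem87b (-0.33), Tmem59 (-0.30), the manganese and calcium transporter Tmem165 (-0.24) and Tmem115 (-0.22), of which the last was not called in 4 of the fits with a transfection left out. The Kish proteins Tmem167 (-0.13) and Tmem167b (0.11) were not called.

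Among the 8 members listed under ER protein biogenesis 3 were higher in soma (18.6% of all genes) and none higher in neurites (19.4% of all genes). Tmem131, a protein of collagen secretion, had 32.7, 35.1, 33.0, 31.8 and 32.5 TPM in neurites and 52.4, 46.8, 44.5, 53.5 and 49.3 TPM in soma (CTG480, Kif1bα tail, Kif1c tail, CTG0 and Kif1bβ tail). No neurite library reached the lowest soma library, and the log2 difference was -0.57 ± 0.0598 (SE, limma, adjusted p = 0.000772). The glycosyltransferase Tmem5 (-0.30) and the ubiquitin ligase Tmem129 (-0.29) were the other two, of which Tmem129 was not called without the Kif1c tail, CTG0 or the Kif1bβ tail. Tmem147, a part of the translocon for multipass proteins, averaged 67.4 TPM in neurites and 67.3 TPM in soma, Tmem259 was at -0.06, Tmem208 at -0.08, Tmem258 at 0.03 and Tmem199 at 0.13, none of them called.

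Of 12 members that handle ions or lipids in the ER, 3 were higher in soma (18.6% of all genes). Of the rest, 1 (Tmem64) was higher in neurites (19.4% of all genes) and 8 were not called. The 3 higher in soma were the lipid scramblase Tmem41b (-0.48), Tmem33 (-0.42) and the sterol-handling sigma-2 receptor Tmem97 (-0.34). Of 10 endosome and lysosome members Tmem55b was higher in neurites (19.4% of all genes) and Tmem106b (-0.35) and Tmem9 (-0.20) were higher in soma (18.6% of all genes), and the call of Tmem9 was kept only without the Kif1bα tail among the 5 fits that left out a transfection. Of 4 cilium members Tmem138 was called higher in soma (18.6% of all genes), whereas Tmem67 (meckelin, -0.35), Tmem237 (-0.07) and Tmem107 (0.13) were not called. The 50 members in no list had 1 higher in neurites (19.4% of all genes) and 17 higher in soma (18.6% of all genes), with a median of -0.13.

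**Figure D3:**
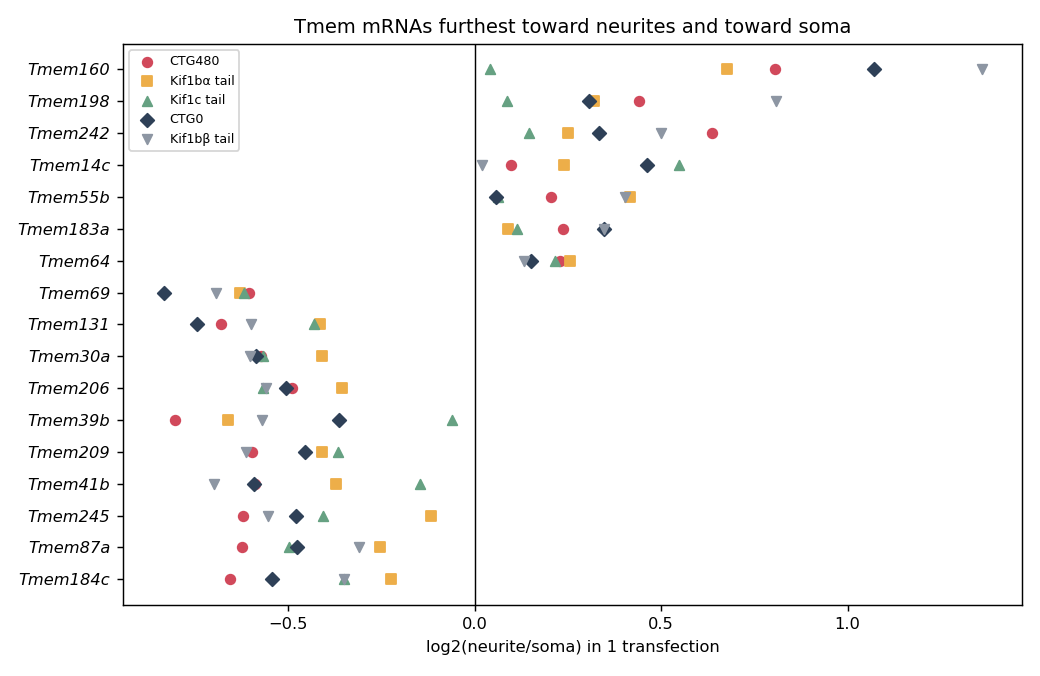
log2(neurite/soma) in single transfections (x axis) of the 7 Tmem mRNAs called higher in neurites and the 10 furthest toward soma among those called with the same sign in all 5 transfections, 1 marker per transfection. Tmem160 spreads from 0.04 with the Kif1c tail to 1.36 with the Kif1bβ tail, and Tmem69 stays between -0.83 and -0.61.

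Members that share a number are often paralogs, and 21 such pairs in 17 groups could be compared within transfections. In 4 pairs the order was the same in all 5 transfections, which gives the smallest p that an exact two-sided sign-flip permutation test allows here, 0.0625 (adjusted over the 21 pairs, 0.328). Tmem126a was below Tmem126b by 0.60 on average (-0.60 ± 0.402, SD, n = 5). Tmem198 was above Tmem198b by 0.47 ± 0.31, Tmem176a minus Tmem176b was -0.37 ± 0.246, and Tmem50a minus Tmem50b was -0.26 ± 0.164 (SD, n = 5 each). Tmem176a and Tmem176b overlap on opposite strands, and the near-identical Tmem181a, Tmem181b-ps and Tmem181c-ps may share reads, so their single values are uncertain. In all, 42 of the 109 with a gene location have an exon that overlaps an exon on the opposite strand. On the same strand 3 have such an overlap, Tmem165, Tmem189 and Tmem198b. The library kit keeps strand, and whether counting used it is not given in the sources used here.

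Tmem mRNAs with a longer coding sequence had lower neurite/soma ratios on average. For the 112 with a coding model, log2(neurite/soma) against the log2 number of codons gave r = -0.44 and rho = -0.47 across genes, against r = -0.20 and rho = -0.21 over 9424 genes. The length of the whole mRNA gave similar values, r = -0.41 and rho = -0.40 for the Tmem mRNAs. Over the 9424 genes it gave r = -0.23 and rho = -0.25, so the relation was not particular to coding length. Genes are not independent replicates, and all points share the same 10 libraries. The 28 shortest members (72 to 190 codons) had a median of 0.01 with 3 higher in neurites and 4 higher in soma, where 27.04% and 11.4% of all genes in this range of length were. The next 28 (195 to 271 codons) had a median of -0.03 with 0 higher in neurites and 7 higher in soma (25.2% and 13.0% of all genes in the range). The 28 with 275 to 407 codons had a median of -0.21 with 4 higher in neurites and 11 higher in soma (25.7% and 14.5%). The 7 called higher in neurites had 114 to 381 codons, too few calls to describe a relation to length. The 28 longest (444 to 1877 codons) had a median of -0.31 with 0 higher in neurites and 18 higher in soma (15.2% and 20.4%). Over all genes in the same ranges of length the medians were 0.06, 0.06, 0.06 and -0.01. Mitochondrial members were short, with a median of 197.5 codons against 273 over all 112 Tmem mRNAs.

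**Figure D4:**
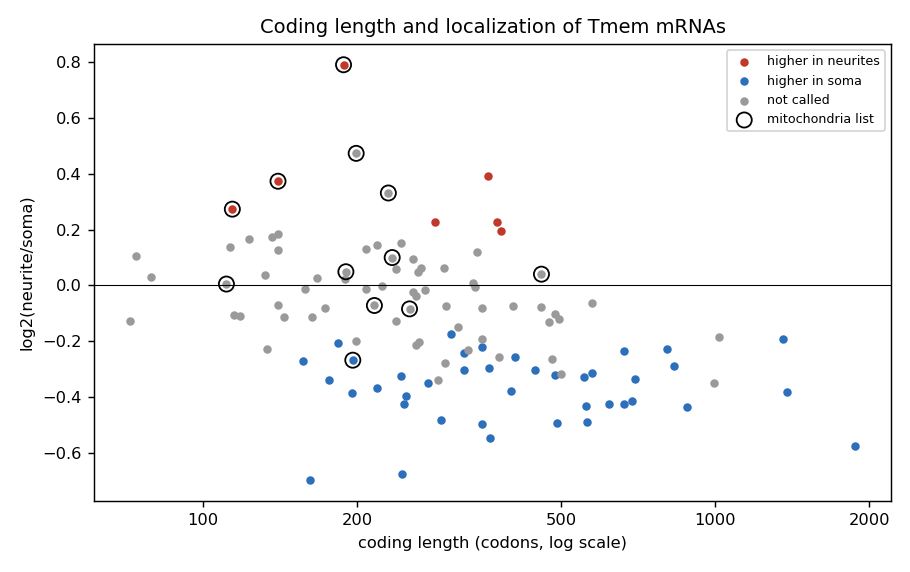
Coding length in codons (x axis, log scale) against mean log2(neurite/soma) of the 112 Tmem mRNAs with a coding model, coloured by the call, with the 12 members of the mitochondria list circled. From 444 codons upward no point is called higher in neurites and 18 are called higher in soma.

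A second codon base of U marks codons for hydrophobic residues, and Tmem mRNAs had a median of 33.3% such codons, against 26.3% over all genes. Within the Tmem mRNAs this share showed no relation to log2(neurite/soma) (r = -0.03, rho = 0.04, n = 112 genes). The 3′ UTR length gave r = -0.18 and rho = -0.20, and the 5′ UTR length gave r = -0.14 and rho = -0.17.

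The comparison of CTG480 with CTG0 asked whether sequestering MBNL moves mRNAs out of neurites. MBNL binds YGCY, that is TGCT or TGCC and, with a first C in place of T, also CGCT or CGCC, in DNA letters. The windows of 30 bases with the most such motifs (overlaps counted, mRNA strand) in the 3′ UTRs are shown for the 3 members with the lowest and the 3 with the highest difference among those with a window. Capitals mark the motifs, the sequences run 5′ to 3′ on the mRNA strand, and positions are GRCm38 from GENCODE M21.
Tmem138 (chr19:10571093-10571122, minus strand): tcctggtagaaggCGCCTGCCtgggcTGCT
Tmem18 (chr12:30588748-30588777, plus strand): tggtgaacTGCTGCTgtgCGCCatgtttgt
Tmem106a (chr11:101590454-101590483, plus strand): tctgtcTGCCGCCcctggactccaggcacc
Tmem261 (chr4:75277537-75277566, minus strand): atgagctgtcattctttggccatggaTGCT
Tmem19 (chr10:115341527-115341556, minus strand): acTGCCcagtaagactgtTGCCTGCCCGCT
Tmem170 (chr8:111864762-111864791, minus strand): tccTGCCgtCGCCtcTGCTctctacaTGCT

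The best windows held 3 motifs for Tmem138, 3 for Tmem18 and 2 for Tmem106a, against 1 for Tmem261, 4 for Tmem19 and 4 for Tmem170. In the same order the 3′ UTRs were 678, 2468, 1335, 351, 1764 and 3328 bases long. A longer 3′ UTR offers more windows, and neither these counts nor the shares below were adjusted for length. Of all genes with a 3′ UTR long enough, 81.9% have a window with at least 2 motifs, 48.2% one with at least 3 and 14.7% one with at least 4. Over 111 members the YGCY motifs per kilobase of UTR against the difference of ratios gave r = 0.26 and rho = 0.24, and over 9296 genes r = 0.12 and rho = 0.18, values across genes that share the same 4 libraries.

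With CTG480, the neurite/soma ratio was down by at least 0.5 against CTG0 for 3 of the 115 Tmem mRNAs and up by at least 0.5 for 4, beside 3.55% and 3.7% of all genes. The median difference of the Tmem mRNAs was 0.01 and that of all genes was 0.00. Tmem138 had the lowest difference, -1.52, from 3.55 TPM in neurites and 10.2 TPM in soma with CTG480, against 7.85 TPM in neurites and 7.76 TPM in soma with CTG0. Tmem18, a nuclear membrane protein, followed at -0.86, from 5.92 TPM in neurites and 10.2 TPM in soma with CTG480, against 7.99 TPM in neurites and 7.50 TPM in soma with CTG0. Tmem205 was at -0.66 and Tmem106a at -0.50. The highest differences were those of Tmem261, an assembly factor of complex I (0.77), Tmem19 (0.63), Tmem170 (0.61) and the autophagy regulator Tmem39a (0.56). Both groups have 1 library per fraction, so these differences have no replicate check.

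Both other tails were compared with the same Kif1bβ tail libraries. With the Kif1bα tail, the ratio was down by at least 0.5 for 5 Tmem mRNAs and up by at least 0.5 for 6 (3.45% and 3.91% of all genes). The median difference of the Tmem mRNAs was 0.15, beside 0.01 over all genes, and 81 of the 115 (70.4%) lay above 0, against 51.0% of all genes. With the Kif1bα tail the Tmem median was closer to that of all genes than with any other transfection. The lowest were Tmem29 (-0.90), Tmem68, an ER acyltransferase (-0.75), Tmem126b (-0.69) and Tmem160 (-0.68). The highest were Tmem67 (0.88), Tmem258 (0.84), Tmem106c (0.84) and Tmem60 (0.70). Of those named here Tmem67 (mean of 5.26 TPM), Tmem68 (5.32 TPM) and Tmem29 (7.30 TPM) were near the minimum level. The means of the others ran from 14.5 TPM (Tmem60) to 90.4 TPM (Tmem258). With 1 library per fraction these differences have no replicate check.

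With the Kif1c tail, 9 Tmem mRNAs (7.83%) were down by at least 0.5 and 12 (10.4%) were up by as much, against 3.97% and 4.71% of all genes, with a median difference of 0.03. Tmem160 had the lowest, -1.32, from 26.6 TPM in neurites and 25.9 TPM in soma with the Kif1c tail, against 47.2 TPM in neurites and 18.3 TPM in soma with the Kif1bβ tail. Tmem29 (-0.77), Tmem198 (-0.72) and Tmem70 (-0.69) followed. Tmem223 had the highest, 1.68, from 9.61 TPM in neurites and 3.49 TPM in soma with the Kif1c tail, against 5.12 TPM in neurites and 6.07 TPM in soma with the Kif1bβ tail. Tmem258 was at 1.28, from 123.4 TPM in neurites and 80.6 TPM in soma with the Kif1c tail, against 69.7 TPM in neurites and 111.0 TPM in soma with the Kif1bβ tail. Tmem138 (0.97) and the lysosomal channel Tmem175 (0.69) were next. Since Tmem160, Tmem258 and Tmem29 stand at the ends in both comparisons, the shared Kif1bβ libraries, where their ratios were 1.36, -0.67 and 0.74, enter each of these values.

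**Figure D5:**
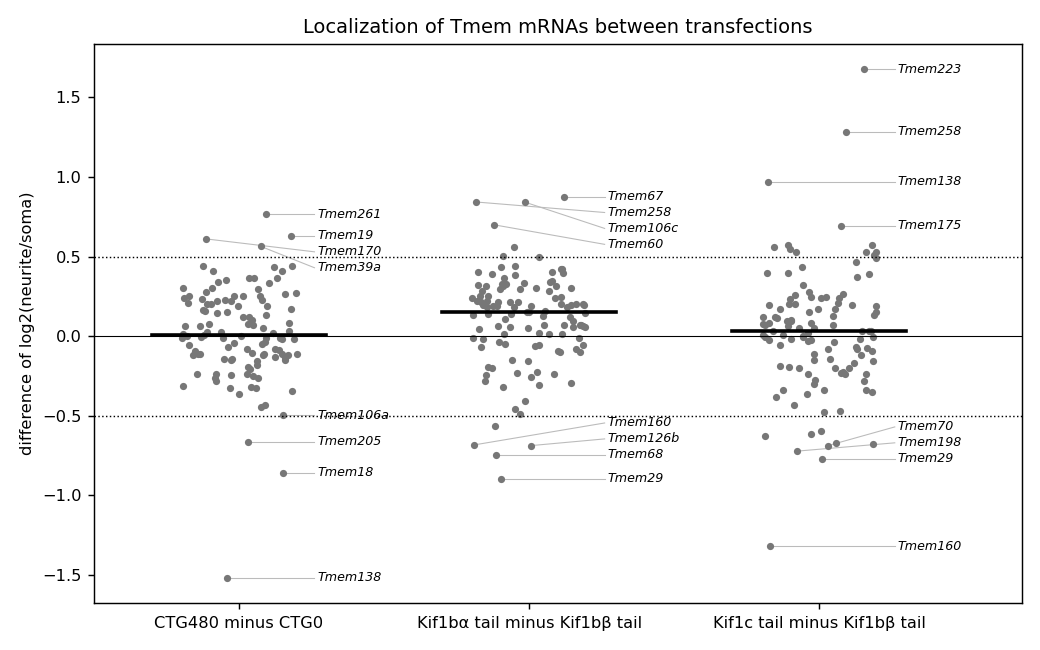
Difference of log2(neurite/soma) between transfections (y axis) of 115 Tmem mRNAs in 3 comparisons, 1 point each, with the median as a bar, dotted lines at 0.5 and -0.5 and the 4 highest and 4 lowest members named. The median is 0.15 for the Kif1bα tail against the Kif1bβ tail, and 0.01 and 0.03 in the other comparisons.

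When the 3 perturbed transfections (CTG480, Kif1bα tail, Kif1c tail) were set against the 2 controls (CTG0, Kif1bβ tail), limma called 0 of the 115 Tmem mRNAs and 0 of 9853 genes (0.0%). At an unadjusted p under 0.05 there were 7 Tmem mRNAs, 4 of them higher in the perturbed transfections, beside 512 genes (5.2%). Tmem147 had the lowest adjusted p of the Tmem mRNAs, 0.891 by limma, with a difference of 0.44 and ratios of 0.08, 0.22 and 0.23 in the perturbed transfections and -0.36 and -0.17 in the controls. Tmem160 had a difference of -0.71 (limma, adjusted p = 0.939), with 0.80, 0.68 and 0.04 in the perturbed transfections and 1.07 and 1.36 in the controls. The other 5 were Tmem184b (0.34), Tmem234 (0.27), Tmem199 (0.23), Tmem237 (-0.33) and Tmem176a (-0.30). The median difference was 0.07 for the Tmem mRNAs and 0.00 for all genes, with 76 (66.1%) of the Tmem mRNAs above 0, against 50.2% of all genes.

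Few Tmem mRNAs changed in level between transfections. Tmem205 was the only one of the 115 whose level differed by 0.5 or more on the log2 scale in the same direction in both fractions, being lower with the Kif1c tail than with the Kif1bβ tail with log2 differences of -0.53 in neurites and -0.93 in soma. It had 13.8 TPM in neurites and 12.1 TPM in soma with the Kif1c tail, against 20.02 TPM in neurites and 23.01 TPM in soma with the Kif1bβ tail. Of all genes 0.457% were lower in this way. In CTG480 over CTG0 and in the Kif1bα tail over the Kif1bβ tail there was 0 of 115 in either direction, beside 0.345% of all genes higher and 0.274% lower for CTG480, and 0.183% higher and 0.254% lower for the Kif1bα tail.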

How the data were processed

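Per the labels and the methods of the study, 300 ng of RNA per library was depleted of ribosomal RNA and sequenced with a strand-keeping kit, the submitters' processing notes name bcl2fastq 2.20 and kallisto 0.43.0, and the reference was RefSeq of mm10. The deposited signal values are linear TPM per transcript that the authors normalized between libraries by cyclic loess, so they no longer sum to 1000000. They keep no counts, so depth is unknown. A second deposited table holds the authors' own log2 ratios and was not used. TPM were summed by gene, leaving out 3 rows without a gene and 5 plasmid rows. Values were tested on log2(TPM + 0.1), which understates changes of low genes, with limma 3.58.1 (R 4.3.3; linear model, trended empirical Bayes, 2-sided, Benjamini-Hochberg over 9853 genes, adjusted p under 0.05), with the transfection as a block since both fractions of a transfection came from 1 plate. Differences between 2 transfections have no test. The fit was tested on simulated data. Groups came from the sample labels.

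Members and lists were chosen with earlier results of these data known. Full values were given for the members furthest in each direction among called ones with 1 sign in all transfections, the 5 most abundant, the extremes of each list and of each comparison, and paralogs. A planned count of hydrophobic segments was replaced, after the data were seen, by coding length and second codon bases, from GENCODE M21 (GRCm38). Gene models were matched for 112 of 115 members. Alternatives were another pseudocount, minimum, scaling, variance model, no block, single transcripts and each transfection left out. Figures and tables used Python 3.11.15.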

Additional observations from a re-analysis of the deposited data

Results flagged for a closer look

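In 4 of the 65 Tmem mRNAs named, 1 transfection's log2(neurite/soma) stood apart from the other 4 (Dixon's criterion, which chance meets in about 1 in 20 groups). Tmem106b was at -0.53 with the Kif1bβ tail, against -0.34 to -0.28 in the others. Tmem176b was at 0.25 with the Kif1bα tail, against -0.03 to 0.02. Tmem30a was at -0.41 with the Kif1bα tail, against -0.60 to -0.57. Tmem63a was at 0.0582 with CTG480, against -0.33 to -0.28, so its call toward soma is not shared by that transfection.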

How the results depend on the processing

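Of the 41 calls toward soma 29, and of the 7 toward neurites 3, were kept whichever transfection was left out; the counts ran from 30 to 38 and from 4 to 7. Without the replicate block there were 10 calls toward neurites and 42 toward soma (7 and 39 of the calls kept), and deviations of the fractions of 1 transfection correlated by -0.03 to 0.05, so the pairing rests on the shared plate alone. A minimum of 20 TPM left 56 Tmem mRNAs, 24 of them higher in soma, and kept 6 of the calls toward neurites. No share over all genes is given for this minimum or for the fit without the block. The counts from these fits therefore cannot be set against a background. Scaling to a sum of 1000000 gave 49 and 3 calls, and scaling to the coding sum 21 and 23. The first also turned the sign of 17 named mRNAs, to 0.30 (Tmem106c), 0.33 (Tmem120b), 0.0706 (Tmem126a), 0.0172 (Tmem161b), 0.0154 (Tmem176a), 0.21 (Tmem181a), 0.00591 (Tmem181c-ps), 0.0816 (Tmem184b), 0.26 (Tmem198b), 0.28 (Tmem259), 0.0674 (Tmem50a), 0.32 (Tmem50b), 0.0368 (Tmem59), 0.11 (Tmem63a), 0.0514 (Tmem63b), 0.00563 (Tmem87b) and 0.13 (Tmem9). Single transcripts in place of genes gave 5 lower and 11 higher by 0.5 with CTG480. They gave 12 higher with the Kif1bα tail and 14 lower with the Kif1c tail. Scaling to 1000000 gave 10 higher genes with the Kif1bα tail. The cause of these counts was not tested. The unit of the transcript counts is a transcript, and 125 Tmem transcripts passed the minimum. For each tail only 1 direction is given, and no share over all transcripts or genes stands beside these counts. They therefore cannot be set against a background, nor the transcript counts against the counts of genes. The count of perturbed against control calls was 0 with each transfection left out. Low values, near 5 TPM, cannot be given a counting error since no counts are known.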

Other observations

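Transcripts of 1 Tmem gene could lie on different sides. Among 125 transcripts at 5 TPM or more, the 4 of Tmem176b ranged from -1.79 to 0.67 in log2(neurite/soma), although the gene's sum was at 0.05. The RefSeq transcript at 0.67 had an adjusted p of 0.00927 and the one at -1.79 an adjusted p of 0.0511 by limma, which was fitted over all transcripts. Both transcripts of Tmem267 passed, at -0.52 (adjusted p = 0.00874, limma) and 0.40 (adjusted p = 0.0166, limma), on opposite sides of the gene's sum (0.06). Tmem87a had -0.71 and 0.16 for its transcripts, Tmem106c -0.22 and 0.52, and Tmem201 -0.54 and 0.15. The part of the division of reads between transcripts was not tested.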
